A study of Mus musculus with 2 samples.

Results

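The major histocompatibility complex (MHC) genes of the mouse, whose symbols begin with H2, were followed in the adrenal gland. Members were the genes that GENCODE M21 types as protein-coding and whose symbol starts with H2-, which gave 34 of 22028 protein-coding genes. They comprised 24 class I genes, 9 class II genes and H2-Ke6 (Hsd17b8), a 17-beta-hydroxysteroid dehydrogenase that lies in the complex and presents no peptide. All lay on chromosome 17 (mm10), between position 33996017 at H2-K1 and 37483552 at H2-M2. The data were 2 total RNA libraries, each made from 300 ng of RNA with spike-in RNA and a directional kit, from adrenal gland of male mice aged 10 days. The mice were B6Cast F1, the first-generation hybrid of C57BL/6J and CAST/EiJ, untreated as far as the labels say. The sample characteristics number the animals 3 and 4, both library descriptions carry the number 3, and the donor identifier is the same. The descriptions also label the libraries biological replicates 1 and 2, each with technical replicate number 1. Since these labels differ, whether the libraries came from separate animals is not settled, and the spread between them may be technical. The libraries formed 1 group with replicates 1 and 2 as labelled, so no groups were compared and no p-value is given. Reads were assigned to the C57BL/6J reference, and no counts per allele were used here. How reads of CAST/EiJ alleles of these polymorphic genes were counted was not tested.

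Class I molecules display peptides from inside the cell to CD8 T cells and natural killer cells. Their heavy chain pairs with beta-2-microglobulin, and nearly all nucleated cells carry the classical forms encoded by H2-K1 and H2-D1. The Q, T and M regions encode further class I heavy chains, many with restricted expression or special ligands. Class II molecules are alpha and beta chain pairs found mainly on B cells, macrophages and dendritic cells, where they present peptides from engulfed material to CD4 T cells. H2-DM loads those peptides in endosomes and H2-O modulates H2-DM.

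Promoters are shown for 3 class I and 2 class II genes to set genes with and without the kB motif side by side. RefSeq windows (GRCm38.p6) matched 31 of 34 members. H2-Ab1, H2-Q1 and H2-T24 had no entry. These motifs, 4 in all, were searched on both strands of each window of 300 bases, which ends just downstream of the start. They were the kB motif GGGGATTCC of the class I enhancer, the Y box CCAAT bound by NF-Y, the X1 box CCTAGNNAC bound by RFX, and GAAANNGAA, the motif of interferon regulatory factors. The bases before the start are printed 5′ to 3′ with kB motifs and Y boxes in capitals. A Y box on the opposite strand reads ATTGG.
H2-K1: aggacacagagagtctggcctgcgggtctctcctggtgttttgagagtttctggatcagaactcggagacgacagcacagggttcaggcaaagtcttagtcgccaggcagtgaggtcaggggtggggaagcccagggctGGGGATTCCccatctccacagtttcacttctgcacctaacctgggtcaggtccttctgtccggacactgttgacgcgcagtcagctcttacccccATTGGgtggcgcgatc
H2-Q6: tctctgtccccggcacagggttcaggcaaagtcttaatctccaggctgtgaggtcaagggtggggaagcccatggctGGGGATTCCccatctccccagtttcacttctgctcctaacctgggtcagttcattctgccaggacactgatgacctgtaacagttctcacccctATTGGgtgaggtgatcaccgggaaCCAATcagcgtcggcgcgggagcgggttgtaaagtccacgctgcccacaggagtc
H2-Q10: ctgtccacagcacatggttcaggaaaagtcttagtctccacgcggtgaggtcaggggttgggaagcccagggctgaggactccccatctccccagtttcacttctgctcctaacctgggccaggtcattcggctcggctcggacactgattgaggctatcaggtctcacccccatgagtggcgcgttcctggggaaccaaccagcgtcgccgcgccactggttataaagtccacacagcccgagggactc
H2-Aa: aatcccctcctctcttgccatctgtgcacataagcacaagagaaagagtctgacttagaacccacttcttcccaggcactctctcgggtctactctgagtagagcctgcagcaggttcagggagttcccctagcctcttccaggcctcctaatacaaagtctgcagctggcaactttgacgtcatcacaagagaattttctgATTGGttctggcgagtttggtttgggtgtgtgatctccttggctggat
H2-Eb1: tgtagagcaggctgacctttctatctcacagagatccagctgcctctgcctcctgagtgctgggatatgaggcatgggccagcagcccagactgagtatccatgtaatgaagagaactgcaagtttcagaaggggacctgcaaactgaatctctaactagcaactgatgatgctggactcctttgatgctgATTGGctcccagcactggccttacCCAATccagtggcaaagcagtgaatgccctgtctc
The windows are chr17:34000348-34000597 (minus strand) for H2-K1, chr17:35424600-35424849 (plus) for H2-Q6, chr17:35469839-35470088 (plus) for H2-Q10, chr17:34287824-34288073 (minus) for H2-Aa and chr17:34305617-34305866 (plus) for H2-Eb1.

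The kB motif was in 4 of 22 class I genes with a window (H2-K1, H2-D1, H2-Q6 and H2-Q7), in 0 of 8 class II genes, and in 0.250% of all 32851 windows. It lay 111 to 103 bases before the printed start of H2-K1 and 173 to 165 before that of H2-Q6. Another window of H2-K1, with a different start, is not printed. There the kB motif lay 125 to 117 bases before the start, with Y boxes at 30 to 26 and 6 to 2. H2-Q10, which encodes a secreted class I molecule made mainly by the liver, held none of the 4 motifs as spelled. Its nearest stretch to the kB motif differed by 1 base, T6G, counted from 1 at the 5′ end of the motif with the motif's base first, on the minus strand 174 to 166 bases before the start. The Y box was in 19 of 22 class I genes and 8 of 8 class II genes, against 37.4% of all windows. For each motif, a gene was counted if any of its windows matched. By window, the Y box was in 30 of 34 windows of members, and 1 window of H2-DMa held none. The X1 box as spelled was in 2 of 22 class I genes (H2-M1 and H2-M9), 2 of 8 class II genes (H2-DMb1 and H2-Ob) and H2-Ke6, against 3.91% of all windows. In H2-Eb1 the nearest stretch to the X1 box differed by 1 base (C1A) and lay 95 to 87 bases before the start, upstream of its Y boxes. Stretches 1 base from the X1 box were also in the printed windows of H2-Aa and of the class I genes H2-K1 and H2-Q10. The share of all windows with such a stretch was not computed. The interferon regulatory factor motif as spelled was in H2-T22 and H2-T23 among the members and in 8.56% of all windows. Other spellings of it were not searched, so members without a match may still hold a variant. A match describes letters only and is not a measured binding site.

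Values are expected counts, the estimated number of fragments per gene, and TPM, a transcript abundance corrected for length and scaled to the same total in each library, spike-ins included. Expected counts on annotated genes totalled 36652695 in replicate 1 and 38641442 in replicate 2, and the members took 0.0244% and 0.0337% of them. The adrenal label was checked with 8 genes of the steroid-producing cortex and 8 of the chromaffin cells of the medulla, and all 16 were at 1 TPM or more in both libraries. Cortex markers summed to 6346 and 5553 TPM and chromaffin markers to 1526 and 1273 TPM. Liver markers were also present, with sums of 3761 TPM (replicate 1) and 11767 TPM (replicate 2) and albumin (Alb) at 2046 and 6173 TPM.

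Of the 34 members, 12 (35.3%) were at 1 TPM or more in both libraries, against 56.7% of all protein-coding genes. A further 5 passed 1 TPM in replicate 2 but not in replicate 1. At the other end, 9 members, all of them class I genes of the M region, had 3 or fewer counts in each library. Of these, H2-M1 and the 6 genes from H2-M10.1 to H2-M10.6 had 0 counts in both, which allows up to 3 counts per library.

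Over all transcripts, the classical class I genes had the highest TPM of the antigen-presenting members. H2-K1 had a level of 57.33 TPM in replicate 1 and of 71.95 TPM in replicate 2. H2-D1 stood at 32.15 and 38.43 TPM. The ranges of these genes over the libraries did not overlap, and H2-K1 was at 1.78 and 1.87 times the TPM of H2-D1. Together they made up 66.7% of the summed class I TPM in replicate 1 and 56.8% in replicate 2.

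The order of H2-K1 and H2-D1 depended on which transcripts received the reads. Of the 16 annotated H2-K1 transcripts, H2-K1-215, a retained-intron transcript of 457 bases, held 48.6% and 48.5% of the gene's TPM. The deposited second quantification, made from the reads without genome alignment, gave that transcript 11.5% and 13.3%. Over protein-coding transcripts only, H2-K1 had 27.1 and 33.8 TPM and H2-D1 had 30.3 and 35.5 TPM, so H2-K1 was at 0.893 and 0.954 times H2-D1. On that reading H2-Q10 had 15.1 TPM in replicate 1 and, in replicate 2, 34.3 TPM, which was above H2-K1. In the second quantification H2-K1 was above H2-D1 over all transcripts (1.45 and 1.52 times) and over protein-coding ones (1.22 and 1.26 times). The order of the classical genes thus differed between these readings of the tables.

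Among the Q genes, H2-Q10 was the most abundant, with 15.43 TPM in replicate 1 and more, 35.09 TPM, in replicate 2. The replicate 2 value fell within the H2-D1 range, while the replicate 1 value was below it. Within each library H2-Q10 was below H2-D1. H2-Q4 was at 5.65 and 6.14 TPM. H2-Q6 was at 0.39 and 1.54 TPM and H2-Q7 at 0.81 and 1.72 TPM. These genes encode Qa-2 molecules, which exist in membrane-bound and soluble form. H2-Q1 and H2-Q2 stayed between 0.45 and 0.50 TPM in both libraries.

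H2-T23 encodes Qa-1, the ligand of CD94/NKG2 receptors on natural killer cells. Its level was 12.90 TPM in replicate 1 and rather higher, 27.45 TPM, in replicate 2. The range over the libraries overlapped that of H2-Q10. Within each library H2-T23 was below H2-Q10, and their deposited TPM intervals did not meet. H2-T22, whose product is bound by a subset of gamma-delta T cells, was at 6.31 and 7.82 TPM. H2-T24 was at 0.75 and 1.29 TPM. The thymus leukaemia antigen gene H2-T3 had 7 counts in replicate 1 and 0 in replicate 2. In the M region H2-M3, which presents N-formylated peptides, was the only member over 1 TPM, at 1.22 and 1.53 TPM. H2-M9 had 3 and 11 counts, H2-M2 had 1 and 9, H2-M5 had 1 and 2, and H2-M11 had 0 and 1.

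The classical class II chains lay near each other and below the classical class I genes. H2-Aa, the A alpha chain, had 6.24 TPM in replicate 1 against 14.87 TPM in replicate 2. Its partner H2-Ab1, the A beta chain, was at 5.05 and 11.98 TPM. The E beta chain gene H2-Eb1 was at 6.70 and 11.07 TPM. The ranges of these 3 genes overlapped, and H2-Aa was at 1.24 times the TPM of H2-Ab1 in each library. In the second quantification H2-Aa was at 12.1 and 24.7 TPM and H2-Ab1 at 10.8 and 25.5 TPM, so H2-Ab1 was the higher in replicate 2. Transcripts typed as protein-coding held 16.9% and 22.4% of the TPM of H2-Eb1. H2-Eb1-205, typed as subject to nonsense-mediated decay, held 40.6% and 54.2%. A retained-intron transcript of 782 bases led in replicate 1 with 42.5% and held 3.89% in replicate 2. The second quantification gave that transcript 2.18% and 0%, and gave H2-Eb1-205 51.3% and 64.5%. H2-Eb2 had 1 and 8 counts.

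Peptide-loading class II genes were lower. H2-DMa, the DM alpha chain, was at 2.50 and 2.97 TPM. The DM beta chain genes H2-DMb1 (0.73 and 1.19 TPM) and H2-DMb2 (0.66 and 1.51 TPM) overlapped each other and lay below H2-DMa. H2-Ob, the O beta chain, was at 0.55 and 0.89 TPM. H2-Oa, the O alpha chain, had 3 and 17 counts.

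Class I outweighed class II in each library. Class I genes summed to 134 TPM in replicate 1 against 194 TPM in replicate 2, a mean of 164 ± 42.6 (SD, n = 2). Class II genes summed to 22.5 and 45.0 TPM, a mean of 33.8 ± 15.9 (SD, n = 2). Class I was thus 5.96 times class II in replicate 1 and 4.32 times in replicate 2, a log2 ratio of 2.34 ± 0.33 (SD, n = 2). H2-Aa, H2-Ab1 and H2-Eb1 made up 79.9% and 84.3% of the class II sum. H2-Ke6 alone was at 61.94 and 64.47 TPM, above the summed class II genes in both libraries.

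**Figure D1:**
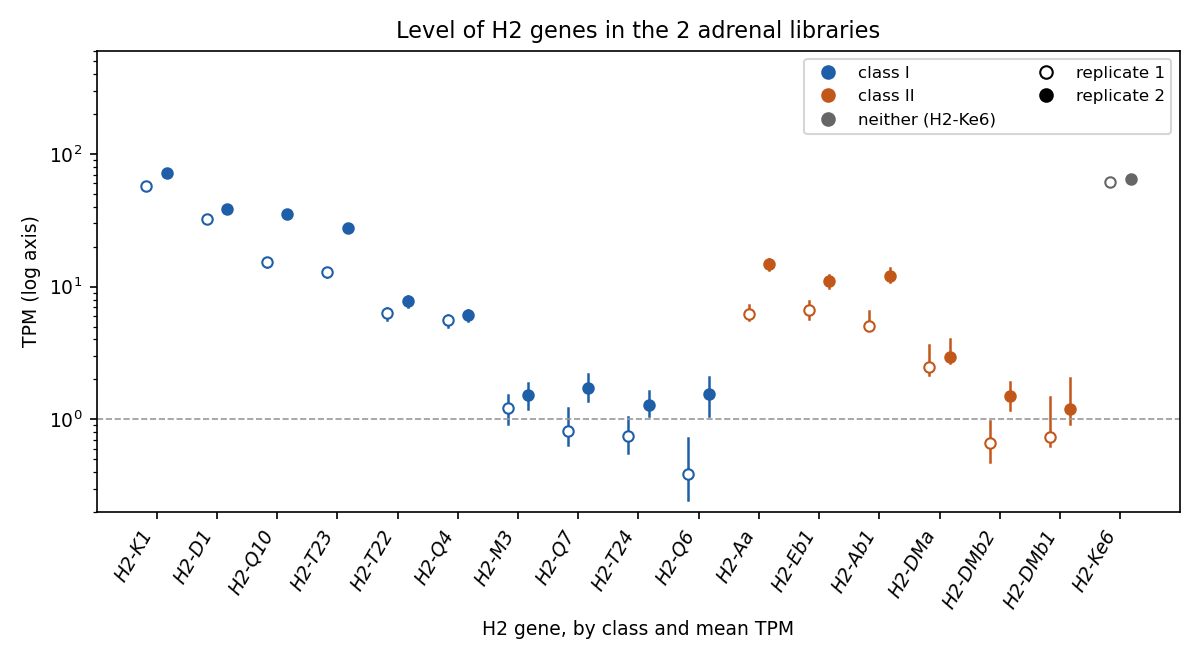
TPM on a log axis of the 17 members at 1 TPM or more in either library, with open points for replicate 1, filled points for replicate 2 and bars for the deposited TPM interval. H2-K1 and H2-D1 lead class I, H2-Aa, H2-Eb1 and H2-Ab1 lead class II, and H2-Q10 and H2-T23 lie apart between the libraries while H2-K1 and H2-D1 lie close.

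Nearly all detected members were higher in replicate 2. Ratios were taken from expected counts after TMM scaling, which sets the bulk of genes to a ratio near 1, and each has an exact 95% binomial (Clopper-Pearson) interval that covers counting error only. Of the 25 members with more than 3 counts in a library, 23 were higher in replicate 2 and 2 were lower (H2-Q2 and H2-T3). Over protein-coding genes with more than 3 counts, 52.8% of 16425 were higher in replicate 2. In bulk tissue, fewer cells of a type and less RNA per cell cannot be told apart.

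Class II genes were higher in replicate 2 without exception, 9 of 9, with a median log2 ratio of 1.19 and a range from 0.45 to 2.50. H2-Aa was at 237 and 551 expected counts, 2.33-fold higher (interval 1.99 to 2.72). H2-Ab1 was at 191 and 449 counts, 2.35-fold higher (1.98 to 2.80), and H2-Eb1 at 234 and 424 counts, 1.81-fold higher (1.54 to 2.14). These 3 intervals overlapped. H2-DMa was 1.37-fold higher (1.01 to 1.85), with its interval below those of H2-Aa and H2-Ab1. H2-DMb2 and H2-Ob were 2.30-fold and 2.03-fold higher, and the interval of H2-DMb1 (0.910 to 2.27) held 1.

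Class I genes differed among themselves. Of 15 with more than 3 counts, 13 were higher in replicate 2, with a median log2 ratio of 0.34, against 0.01 over protein-coding genes. H2-K1 (1866 and 2350 counts) was 1.26-fold higher (1.19 to 1.34) and H2-D1 (2109 and 2612 counts) 1.24-fold higher (1.17 to 1.31). H2-Q10 (816 and 1873 counts) was 2.30-fold higher (2.12 to 2.50) and H2-T23 (675 and 1427 counts) 2.12-fold higher (1.93 to 2.32). The intervals of H2-Q10 and H2-T23 lay wholly above those of H2-K1 and H2-D1. H2-T22 resembled the classical genes at 1.25-fold (1.09 to 1.43), and the interval of H2-Q4 held 1 (1.12-fold, 0.973 to 1.29). At lower counts H2-Q6 was 3.04-fold higher (1.89 to 4.93), H2-Q7 2.10-fold (1.47 to 2.99) and H2-T24 1.88-fold (1.33 to 2.70). By region, summed class I counts were 1.25-fold higher for K and D, 1.92-fold for Q, 1.79-fold for T and 1.52-fold for M. Most Q counts were those of H2-Q10 (816 of 1320 and 1873 of 2527). Most T counts were those of H2-T23 (675 of 1118 and 1427 of 2004). In class II, summed counts were 2.16-fold higher for the A and E chains and 1.73-fold for DM and O. H2-Ke6 was at 1617 and 1689 counts, 1.05-fold (0.976 to 1.12).

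Read against all annotated genes, 10 of 34 members had a mean of at least 100 counts. Of these, 4 (H2-Q10, H2-T23, H2-Aa and H2-Ab1) were more than 2-fold higher in replicate 2, against 4.37% of 13188 genes, and 0 were more than 2-fold lower, against 0.114%. The deposited TPM interval of replicate 2 lay wholly above that of replicate 1 for 8 of the 10, against 11.9% of genes, and wholly below for 0, against 9.31%. The 2 with overlapping intervals were H2-Ke6 and H2-Q4. The level of confidence of the deposited intervals is not given in the sources used here.

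**Figure D2:**
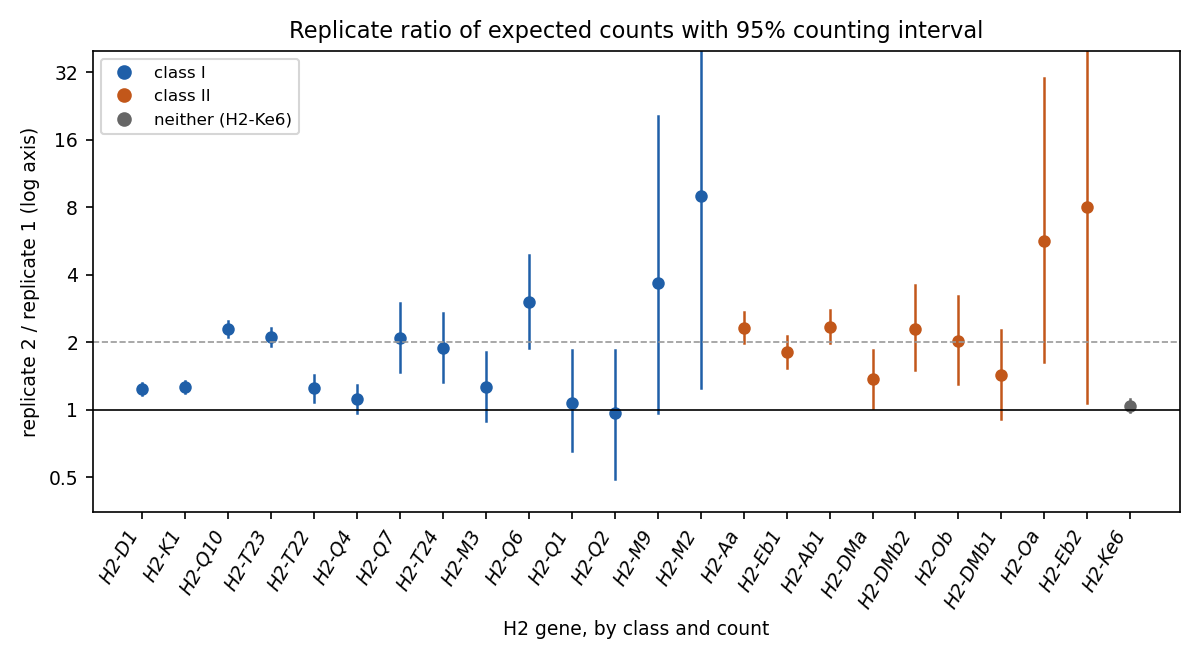
Ratio of replicate 2 over replicate 1 in TMM-scaled expected counts on a log axis, with 95% counting intervals, for the 24 members with more than 3 counts in a library and counts above 0 in both; bars that leave the axis are open-ended in the plot. H2-K1 and H2-D1 sit near 1.25, H2-Q10, H2-T23, H2-Aa and H2-Ab1 sit above the dashed line at 2, and H2-Ke6 sits near 1.

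Partners of class I differed less between the libraries than H2-Q10 or H2-T23. Of 16 genes of class I peptide supply and loading, 12 were higher and 4 lower in replicate 2, with a median fold of 1.11. Of the 15 with a mean of at least 100 counts, 0 were past 2-fold, against 4.37% of all such genes higher and 0.114% lower. B2m, the beta-2-microglobulin light chain, had 88.44 TPM in replicate 1 against 141.71 TPM in replicate 2, 1.63-fold higher in counts (1.55 to 1.71). Its TPM was 0.659 and 0.729 times the summed class I TPM. Calreticulin (Calr), a chaperone of the loading complex, was at 148 and 163 TPM (1.12-fold), while calnexin (Canx) was at 109 and 101 TPM (0.990-fold). Psme2, a proteasome activator subunit, was at 120 and 116 TPM. Tap1 and Tap2, the peptide transporter subunits, were 1.07-fold and 1.08-fold, and the immunoproteasome subunits Psmb8, Psmb9 and Psmb10 were 1.23-fold, 1.22-fold and 1.17-fold. Their standard counterparts Psmb5, Psmb6 and Psmb7 were all slightly lower, with a median fold of 0.973. Nlrc5, the transactivator of class I genes, was at 72 and 102 counts, 1.42-fold (1.04 to 1.94). Tap1, Tap2, the immunoproteasome subunits and Nlrc5 were named after their values were seen.

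Of 16 genes of the class II pathway, 13 were higher and 3 lower in replicate 2, with a median fold of 1.32. Of the 11 with a mean of at least 100 counts, 1 was past 2-fold, against 4.37% of all such genes higher and 0.114% lower. That gene was Cd74, the invariant chain that guides class II molecules, with 15.77 TPM in replicate 1 against 38.18 TPM in replicate 2, 2.39-fold higher in counts (2.18 to 2.61). Its interval overlapped those of H2-Aa and H2-Ab1. Cathepsin L (Ctsl), which degrades the invariant chain in thymic epithelium, was at 84.2 and 128 TPM (fold interval 1.44 to 1.56), and the endosomal protease Lgmn was at 26.9 and 29.4 TPM (1.11-fold). Nfyc, a subunit of the Y-box factor NF-Y, was at 20.1 and 14.7 TPM (0.838-fold, 0.767 to 0.915). Ciita, the class II transactivator, had 45 and 96 counts, 2.14-fold higher (1.48 to 3.11), and was named after its values were seen. The RFX subunits Rfx5, Rfxank and Rfxap were 1.15-fold, 0.953-fold and 0.900-fold, also named after their values were seen.

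Interferon-response genes were mostly close between the libraries: of 29, 27 had more than 3 counts, 21 were higher and 6 lower, with a median fold of 1.12. Of the 20 with a mean of at least 100 counts, 1 was past 2-fold, against 4.37% of all such genes higher and 0.114% lower. That gene was Iigp1, an interferon-induced GTPase, at 1.56 and 4.23 TPM (2.87-fold, 2.38 to 3.46). Of the 4 most abundant, Jak1 was 0.995-fold, Ifngr1 was 1.38-fold and Ifnar1 1.08-fold, and Ifnar2 was at 21.1 and 26.0 TPM. Ifng and Ifnb1 had 0 counts in both libraries. Of 13 genes on a list of receptors of H2 molecules and their families, 8 had more than 3 counts, 6 higher and 2 lower, with a median fold of 1.26. Cd4 had 60 and 143 counts (2.39-fold, 1.75 to 3.28) and Cd8a had 84 and 57 (0.679-fold, 0.476 to 0.962). The inhibitory receptor gene Pirb was 1.72-fold (1.19 to 2.46), and the interval of Cd8b1 held 1 (0.683 to 2.13). Klra1, Klra3, Klra4 and Klra8, the genes of the Ly49 receptor family on this list, had 0 counts in both.

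Markers of several cell types moved alongside the H2 genes. All 10 macrophage markers were higher in replicate 2 (median fold 1.60), with sums of 65.3 and 108 TPM. Lyz2 was 1.89-fold, C1qb 1.65-fold, C1qa 1.41-fold and Csf1r 1.70-fold higher, and Cd68 was past 2-fold at 2.04. Of 10 B-cell markers 9 were higher (median fold 2.49), with sums of 22.2 and 39.0 TPM. Ebf1, the most abundant of them, was 1.04-fold, with an interval that held 1 (0.970 to 1.11). Cd79a was 3.10-fold, Pax5 2.54-fold, Cd79b 2.46-fold and Ighm 2.30-fold higher, Igll1 had 0 counts in replicate 1 and 16 in replicate 2, and Rag1 was 0.249-fold. T and NK cell markers were higher for 8 of 10 (median fold 2.08, sums of 7.28 and 13.8 TPM). Trac was 3.90-fold, Cd3e 1.88-fold, Lck 1.68-fold and Cd3g 1.53-fold. Dendritic cell markers were higher for 8 of 10 (median fold 1.35, sums of 9.37 and 10.3 TPM). Zbtb46, the most abundant of these, was 0.949-fold (0.864 to 1.04), Clec10a 1.85-fold, Ccr7 2.86-fold and Batf3 0.651-fold. Each of the 8 liver markers passed 2-fold towards replicate 2, from 2.51-fold for Apob to 3.86-fold for Fgb. Their median fold was 3.39 beside the 2.30 of H2-Q10, with Alb at 3.06, Ahsg at 3.42, Apoa1 at 3.46 and Ttr at 2.85. Endothelial markers split 4 and 4 (median fold 0.998), with Egfl7 at 1.08, Cdh5 at 1.02, Pecam1 at 1.03 and Plvap at 0.907. All 8 cortex markers were lower (median fold 0.923), among them Hsd3b1 (0.841), Star (0.923), Cyp21a1 (0.930) and Cyp11a1 (0.894). The 8 chromaffin markers were lower too (0.879), among them Chga (0.806), Chgb (0.809), Pnmt (0.923) and Th (0.909). No marker of these lists other than Igll1 was at 0 in a library. The part of these cells in the H2 ratios was not tested.

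**Figure D3:**
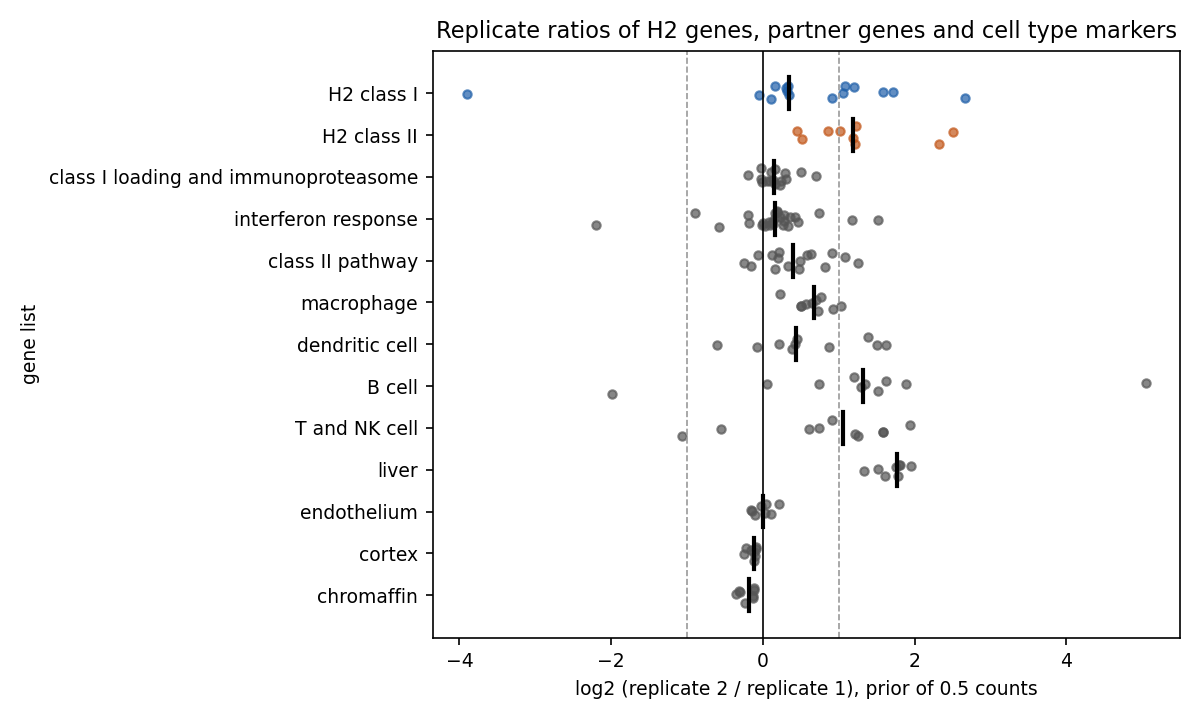
Log2 ratio of replicate 2 over replicate 1 for each gene with more than 3 counts in a library (points, 1 row per gene list) and the median of each list (black bar); dashed lines mark 2-fold. The class II median (1.19) lies by those of the B-cell and T and NK cell lists, the class I median (0.34) lies between the loading and macrophage lists, the liver list is highest, and the cortex and chromaffin lists lie below 0.

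Reads of class I genes were often shared with other genes. An expected count that is not whole (by more than 0.005) shows that reads were divided among genes. This held for 10 of 15 class I genes with more than 3 counts, for 2 of 9 class II genes (H2-DMb1 and H2-DMb2) and for H2-Ke6, against 16.3% of 16425 protein-coding genes. Shared sequence was also counted directly. The most abundant protein-coding transcript of each gene was cut into every possible 50-base window, and windows found in a transcript of another gene were counted. The share was 46.4% for H2-T22, mostly with the pseudogene H2-T10, 40.2% for H2-Q7, 36.8% for H2-Q6, mostly with H2-Q7, and 28.8% for H2-T23. It was 14.3% for H2-D1, 11.0% for H2-Q10 and 9.07% for H2-K1. H2-DMb1 and H2-DMb2 shared 27.2% and 31.3%, mostly with each other. H2-Aa, H2-Ab1, H2-Eb1 and H2-DMa shared 0%. H2-Ke6 shared 80.4% with Gm20427, an overlapping annotation. All 13 members with divided counts shared 8.74% or more, and all 12 with whole counts shared 3.23% or less. The effect of divided reads on the values was not tested.

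**Figure D4:**
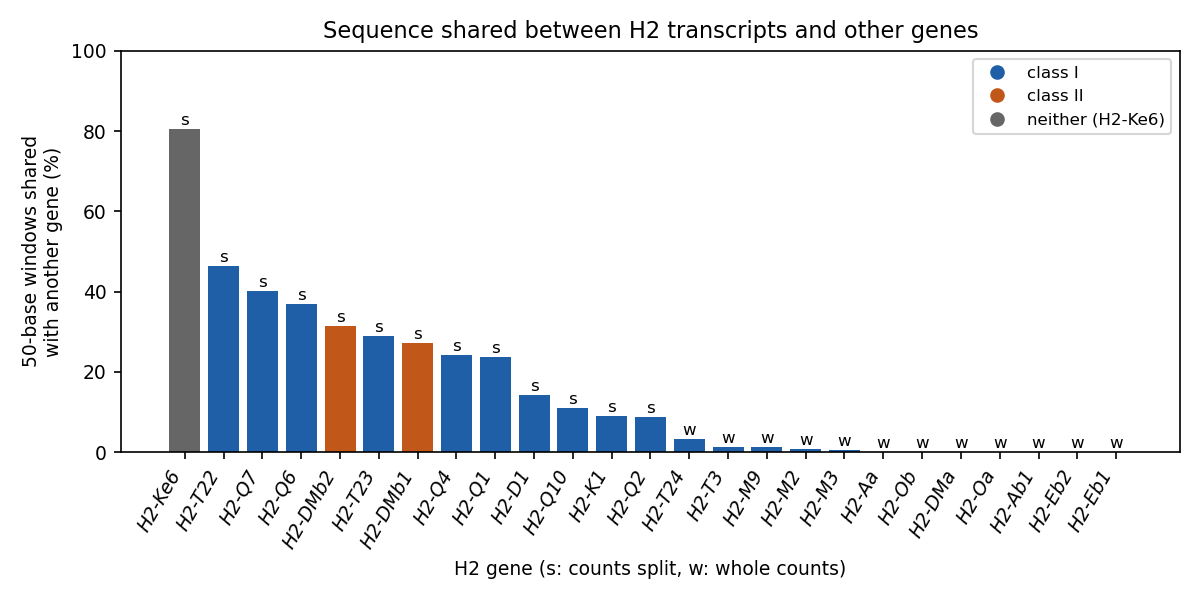
Percent of 50-base windows of the most abundant protein-coding transcript that also occur in a transcript of another gene, for the 25 members with more than 3 counts in a library; s marks members with divided counts and w those with whole counts. H2-Ke6, H2-T22 and H2-Q7 share most, and every class II gene outside the DM beta pair shares 0%.

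Despite the shared sequence, the deposited TPM intervals of most members were no wider than those of other genes. Among 21 members with a mean of at least 10 counts, 3 (H2-DMb1, H2-Q1 and H2-Q6) had intervals wider than the median of genes with counts within 1.5 times. The interval of H2-Q6 spanned 2.93-fold in replicate 1, against 2.51-fold for genes of like count. For H2-K1 it spanned 1.15-fold, against 1.16-fold. In H2-T3 the deposited interval (0.197 to 1.12 TPM in replicate 1) did not contain the deposited TPM of 0.11.

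The second quantification set H2 levels differently gene by gene. Its TPM were higher for most genes, with a median ratio to the gene table of 1.61 in replicate 1 and 1.51 in replicate 2 over protein-coding genes compared. Of 17 members compared, 3 (H2-DMb1, H2-Ab1 and H2-Q7) were more than 2-fold apart in both libraries, against 9.92% of 13297 genes, all higher in the second. Relative to the median ratio, 0 were 2-fold apart and 2 were 1.5-fold apart, H2-DMb1 (2.50 and 1.78) and H2-Q7 (1.56 and 1.51). H2-K1 was lowest, at 0.779 and 0.787 of the median ratio. Summed class I was 197 and 272 TPM and summed class II 42.7 and 79.9 TPM there. The replicate ratios of H2-Q10 and H2-T23, were 1.18 and 1.08 there on the log2 scale, inside the counting intervals of the gene table's ratios.

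**Figure D5:**
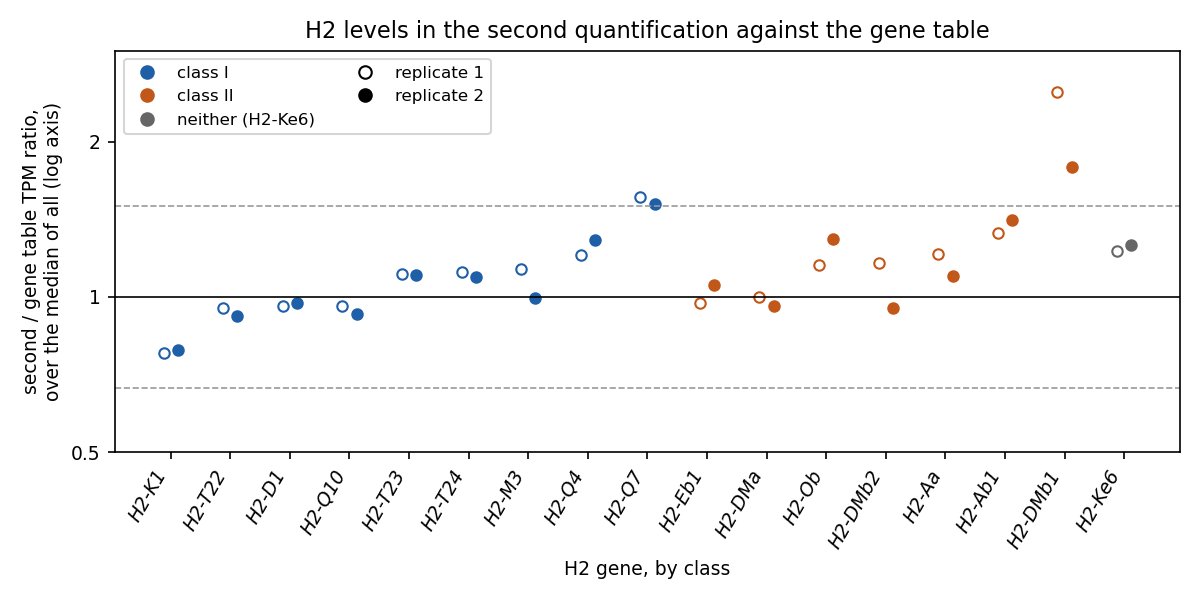
Ratio of TPM in the second quantification to TPM in the gene table on a log axis, divided by the median ratio of all protein-coding genes compared, for 17 members, with open points for replicate 1 and filled points for replicate 2. H2-DMb1 and H2-Q7 lie above the dashed line at 1.5 in both libraries, and H2-K1 is the lowest member.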

How the data were processed

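Total RNA-seq of 2 adrenal libraries, replicates 1 and 2 of 1 group, was used. From transcriptome alignments (mm10, GENCODE M21), the authors made tables per gene and per transcript, per the file headers and deposited notes. These deposited tables hold expected counts (not normalised), TPM, bounds of TPM and, per transcript, the percent of its gene's TPM as the authors computed it. The deposited second transcript table holds estimated counts and TPM made from reads without genome alignment. For the aligner, tools and versions: not given in the sources used here. Entries that are not genes (spike-ins, tRNAs and phiX) were 0.892% and 0.879% of counts and stayed out of scaling and lists.

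Members and lists were chosen with earlier results of these data known. The named genes were all members at 1 TPM or more in a library, the 4 most abundant genes of each list, and list genes more than 2-fold apart with a mean of at least 100 counts; others are marked where named, or were named for low counts or as the ends of a range. Ratios used TMM (edgeR 4.0.16) on expected counts, with 0.5 counts added before taking log2 and nothing added for folds. Genes with 3 or fewer counts in both libraries stayed out of medians. Reads have no molecular identifiers, so intervals and the floor of 3 counts describe counting error alone. The computations were checked on simulated data. Alternatives covered DESeq2 1.42.0 size factors, library and spike-in totals, thresholds, priors, the second table and single libraries. Software was Python 3.11.15 (scipy 1.17.1, pandas 2.3.3, numpy 2.4.6) and R 4.3.3. Protein sequences were not analysed here.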

Additional observations from a re-analysis of the deposited data

How the results depend on the processing

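No paired analysis was possible because the libraries form a single group. Class I outweighed class II under all alternatives run, and the class medians of the replicate ratios kept their sign. Members detected in both libraries numbered 17 at 0.5 TPM, 11 at 2 TPM and 17 in the second quantification, against 12. At 1 TPM, 17 were detected in replicate 2 alone and 12 in replicate 1 alone. Summed class I TPM came to 235 in the second quantification and 491 after rescaling over nuclear protein-coding genes, and ranged from 134 to 194 over single libraries. Summed class II TPM came to 61.3 and 100.4 under the same settings and ranged from 22.5 to 45.0. The log2 ratio of class I over class II was 1.99 in the second quantification, 2.70 from summed expected counts and 1.64 with H2-K1 and H2-D1 alone as class I, and ranged from 2.11 to 2.58 over single libraries. Chosen after seeing the data, class I without H2-Q10 gave 2.11 and protein-coding transcripts only gave 2.45. Members more than 2-fold apart between replicates numbered 9 with a minimum of 10 counts and 14 with no minimum, against 4. The share of all genes was not computed at these lower minimums, where counting error alone can pass 2-fold. Members apart between the quantifications numbered 11 at 1.5-fold, against 3. The median ratio of all protein-coding genes compared, 1.61 and 1.51, was itself past 1.5, so that count describes the scale of the tables. Relative to that median ratio (chosen after seeing the data), 0 were apart at 2-fold and 2 at 1.5-fold. The median excess of interval width was -0.072 on the log2 scale, or -0.078 against genes with counts within 1.2 times. Of 68 replicate ratios of 17 named members under other scalings or the second quantification, 68 stayed within their counting interval. Of these, 3 fell from past 2-fold to within 2-fold. They were H2-Q7 by library total and in the second quantification, and H2-DMb2 in the second quantification. The ratio of H2-Ke6 changed sign under scaling by library total (-0.01). With 2 libraries, the spread between animals is not measured, and counts under 20 leave the low members' ratios uncertain several-fold.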

Other observations

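The annotation lists 11 further H2 entries typed as pseudogenes, which the member rule left out. H2-Ea-ps is the E alpha chain gene, which is not expressed in the C57BL/6 haplotype because its promoter region is deleted. It was at 3.11 TPM (104 expected counts) in replicate 1 and 6.75 TPM (219 counts) in replicate 2, 2.11-fold higher (exact 95% counting interval 1.66 to 2.69). Its TPM was 0.464 and 0.610 times that of H2-Eb1, the gene of its partner chain. Both values are above the level that a count of 0 allows, 3 counts per library. The allele of origin in these hybrids was not tested, since no counts per allele were used here. H2-T-ps was at 3.36 and 3.68 TPM and H2-T10 at 1.14 and 1.24 TPM, and both share sequence with members of the T region. H2-K2 was at 0.80 and 0.93 TPM.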
